A study of Mus musculus with 20 samples.

Results

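The 10 genes described are Serpina12, which encodes the adipokine vaspin, and 9 relatives from clade A of the serpins: Serpina1a, Serpina1b, Serpina1c, Serpina1d, Serpina1e, Serpina3k, Serpina3m, Serpina3n and Serpina6. They were picked by symbol from a count table of 46095 gene symbols, because Serpina12 and Serpina1e had lower counts in livers that lack Pck1. Those differences are therefore described without a test, and tests are given for the other 8 genes and for comparisons that played no part in the choice. All 10 were among the 14440 genes that passed the filter on low counts. The table holds 29 symbols that begin with Serpina.

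The libraries are 20 in number, each from the liver of 1 mouse, in 4 groups of 5. Wild-type mice (WT) and animals with a liver-specific knockout of Pck1 (genotype Pck1-cKO, here KO) received a chow diet or a NASH diet, meant to induce non-alcoholic steatohepatitis, for 24 weeks. All were 31 to 33 weeks old. The sources used here do not give the Cre driver, the composition of the diets or the sex of the mice. Pck1 is the gene of the cytosolic form of phosphoenolpyruvate carboxykinase, which acts in gluconeogenesis, and the series asks what its loss does to the liver transcriptome on either diet.

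Serpins are proteins that trap a protease: the enzyme cuts an exposed loop, the reactive centre loop, and is then held in a distorted complex. The loop sequence sets which protease is caught. In the liver, clade A serpins are made by hepatocytes and secreted into plasma. The Serpina1 genes encode forms of alpha-1 antitrypsin, a protein known as an inhibitor of neutrophil elastase, and mice carry several near-identical copies. Which of the mouse copies inhibit that enzyme was not examined here. The Serpina3 genes are the mouse relatives of antichymotrypsin, likewise multiplied, and Serpina3n is an acute phase gene. Serpina6 encodes corticosteroid-binding globulin, a carrier of glucocorticoids that no longer inhibits proteases. Vaspin was first described in visceral fat, inhibits kallikrein 7 and is studied for its effect on insulin sensitivity.

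The genes lie in 1 cluster on chromosome 12 (GRCm38, GENCODE M21). On the minus strand, Serpina6 (chr12:103646630-103657212) is followed by Serpina1b, Serpina1d, Serpina1a (chr12:103853589-103863562), Serpina1c (chr12:103894926-103904887), Serpina1e (chr12:103946931-103958975) and, beyond Serpina11 and Serpina9, by Serpina12 (chr12:104028769-104044443). Serpina3k, Serpina3m and Serpina3n (chr12:104406729-104414329) are on the plus strand. The annotated model of Serpina1b (chr12:103728156-103830373) spans Serpina1d (chr12:103763594-103773592), and the models of Serpina3k (chr12:104338486-104346144) and Serpina3m (chr12:104338486-104394257) overlap and share a start. The coding sequences of the 5 Serpina1 genes were 96.3% to 98.5% identical to each other over 1239 aligned bases. Those of Serpina3k and Serpina3m were 91.4% identical, and that of Serpina12 was 52.9% to 53.3% identical to the Serpina1 genes. Reads that fit more than 1 of these copies could have been split between them or dropped by the counting, so the values of single Serpina1 genes and of Serpina3k and Serpina3m are uncertain.

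The copies differ most where the reactive centre loop is encoded. Of 86 positions that differ among the 5 Serpina1 coding sequences, 18 fall in the 60 bases below, against a median of 4.0 for windows of that length. The window was picked as the most variable of that length, so its excess over the median follows from the choice. The bases are from the last coding exon, which is exon 6 of Serpina1a and exon 5 of the others, on the minus strand of GRCm38, read 5′ to 3′. Capitals mark every position at which the 5 copies differ, and they show how far the 2 copies that take up much of this account, Serpina1e and Serpina1c, can be told from the rest.
Serpina1a: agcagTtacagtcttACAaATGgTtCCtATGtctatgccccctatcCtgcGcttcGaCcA
Serpina1b: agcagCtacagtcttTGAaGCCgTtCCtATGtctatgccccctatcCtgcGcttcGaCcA
Serpina1c: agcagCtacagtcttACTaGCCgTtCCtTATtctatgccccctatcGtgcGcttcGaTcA
Serpina1d: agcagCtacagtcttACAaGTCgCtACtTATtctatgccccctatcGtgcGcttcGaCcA
Serpina1e: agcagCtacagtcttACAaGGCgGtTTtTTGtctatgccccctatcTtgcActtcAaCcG

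These stretches lie at chr12:103853757-103853816 (Serpina1a), chr12:103728324-103728383 (Serpina1b), chr12:103895094-103895153 (Serpina1c), chr12:103763762-103763821 (Serpina1d) and chr12:103947100-103947159 (Serpina1e). Serpina1e differs from Serpina1a at 12 of the 60 bases, Serpina1c at 10, Serpina1d at 9 and Serpina1b at 6. Over the whole coding alignment Serpina1e has 24 bases that none of the other 4 copies has, Serpina1d 19, Serpina1b 17, Serpina1c 7 and Serpina1a 6. Reads over such bases can be assigned to 1 copy, and Serpina1e has the most of them.

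The regions before the genes are also close copies. Promoter entries (250 bases before to 50 after a gene's start, RefSeq, GRCm38.p6) were found for 7 of the 10 genes, and those of the 5 Serpina1 genes were 91.7% to 98.4% identical. Pairs with Serpina1e aligned over 238 to 249 bases and the other pairs over 288 to 298.

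Each of the 5 holds the letters GTTAAT, a core of the site of the liver factor HNF1, in capitals in the 80 bases printed here to show how little Serpina1e, the copy with the lowest counts in the knockout, differs from its neighbours at this place.
Serpina1a: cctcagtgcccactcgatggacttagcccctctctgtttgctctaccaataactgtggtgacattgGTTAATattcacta
Serpina1b: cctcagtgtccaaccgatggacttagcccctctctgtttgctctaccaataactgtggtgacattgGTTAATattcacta
Serpina1c: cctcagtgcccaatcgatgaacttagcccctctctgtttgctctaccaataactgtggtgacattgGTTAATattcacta
Serpina1d: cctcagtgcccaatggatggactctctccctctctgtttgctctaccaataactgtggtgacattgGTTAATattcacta
Serpina1e: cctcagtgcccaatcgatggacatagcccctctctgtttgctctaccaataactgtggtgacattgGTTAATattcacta

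On the minus strand the stretches lie at chr12:103863627-103863706 (Serpina1a), chr12:103738202-103738281 (Serpina1b), chr12:103904964-103905043 (Serpina1c), chr12:103773636-103773715 (Serpina1d) and chr12:103956962-103957041 (Serpina1e). From that of Serpina1e the others differ at 2 bases (Serpina1a and Serpina1c), 3 bases (Serpina1b) or 6 bases (Serpina1d). The stretches are lined up on GTTAAT, not on the annotated start. GTTAAT begins 78 bases before the start in Serpina1e and 16 to 27 bases before it in the others. Searched on both strands, GTTAAT occurred in 7.1% of 32851 promoters of this length. The promoters of Serpina12 and Serpina3n did not hold these letters. None of the 7 promoters held TTCNNNGAA (the STAT5 site, in 8.3% of all promoters), TGTTTAC (a FOXA site, in 3.65%), the glucocorticoid response element (0.00913%) or the HNF4 direct repeat (0.0396%). A match is a run of letters and says nothing of binding.

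Libraries held 9958935 to 20601955 counts. Levels are given as CPM, counts relative to library size, after scaling of library sizes with the trimmed mean of M-values (TMM), on which 1 CPM stood for 6.80 to 24.9 counts. Pck1 itself was at 3573 ± 1139 CPM (SD, n = 5) in WT and 626 ± 175 CPM in KO on chow, and 2290.1 ± 511 CPM in WT and 445 ± 112 CPM in KO on the NASH diet, and each KO library was below each WT library on the same diet, as the labels have it. Features other than genotype and diet set libraries apart. Counts of 4 Y-linked genes summed to 2753 to 5230 in 13 libraries, called male here, and to 1 to 12 in 7, called female. All 5 WT chow mice were male. Of the WT NASH mice 4 were female and replicate 4 was male, of the KO chow mice 2 were female, and of the KO NASH mice 1. In 6 libraries (WT chow replicates 3, 4 and 5, WT NASH replicate 4, KO chow replicates 4 and 5) longer genes had relatively fewer counts: the slope on log2 gene length of a library's log2 CPM, taken against the 20-library mean, was -0.35 to -0.25, against 0.01 to 0.19 in the other 14. WT NASH replicate 4 is thus the male library of its group, the 1 with a negative slope and the shallowest of all 20, and results that rest on it are given with and without it. In bulk tissue, fewer cells of a type and less RNA per cell cannot be told apart.

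Vaspin mRNA was almost lost from the knockout livers. Serpina12 stood at 16.5, 16.5, 94.2, 71.1 and 101 CPM in the 5 WT chow libraries and at 14.5, 19.9, 13.5, 290.1 and 36.4 CPM in WT NASH. In KO chow the values were 0.510, 0.322, 0.446, 0.290 and 2.25 CPM, and in KO NASH 0.0426, 0.598, 0.435, 1.34 and 0.0907 CPM. On either diet the highest KO library was below the lowest WT library. In reads, the WT libraries held 223 to 1972 counts of Serpina12, the KO chow libraries 4 to 37 and the KO NASH libraries 1 to 28. The fitted log2 difference between KO and WT was -6.31 ± 1.06 (SE) on chow and -7.21 ± 1.11 (SE) on the NASH diet, and the group mean in KO was 1.27% and 0.67% of that in WT. These values chose the gene and carry no test.

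The size of the vaspin difference depended on libraries within WT. In WT chow, the 2 libraries of positive length slope were at 16.5 CPM each and the 3 of negative slope at 71.1 to 101 CPM. In WT NASH, the 4 female libraries of positive slope were at 13.5 to 36.4 CPM and male replicate 4, of negative slope, at 290.1 CPM. Without that library the WT NASH mean was 21.0 ± 10.6 CPM (SD, n = 4) and the log2 difference on the NASH diet was -5.39 ± 0.78 (SE). In libraries of positive slope alone it was -5.26 on chow and -5.39 on the NASH diet, and in males alone -7.26 and -9.22. The part of sex and of the length slope in the spread among WT libraries was not tested.

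Serpina1e, 1 of the 5 alpha-1 antitrypsin copies, followed the same order of genotypes with far more reads. WT chow libraries were at 1947, 2789.5, 2495, 648 and 733 CPM and WT NASH libraries at 463, 49.1, 75.4, 6182 and 119 CPM. KO chow libraries were at 78.4, 47.3, 5.40, 10.5 and 4.86 CPM and KO NASH libraries at 18.2, 1.92, 9.0, 7.28 and 18.4 CPM. The WT chow and KO chow ranges were far apart. On the NASH diet the ranges also did not meet, but WT NASH itself ran from 49.1 CPM in female replicate 2 to 6182 CPM in male replicate 4. The fitted log2 difference, KO against WT, was -5.88 ± 1.31 (SE) on chow and -6.97 ± 1.38 (SE) on the NASH diet. Without WT NASH replicate 4 the latter was -4.01 ± 0.88 (SE), and the WT NASH mean fell from 1378 to 176.5 CPM.

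**Figure D1:**
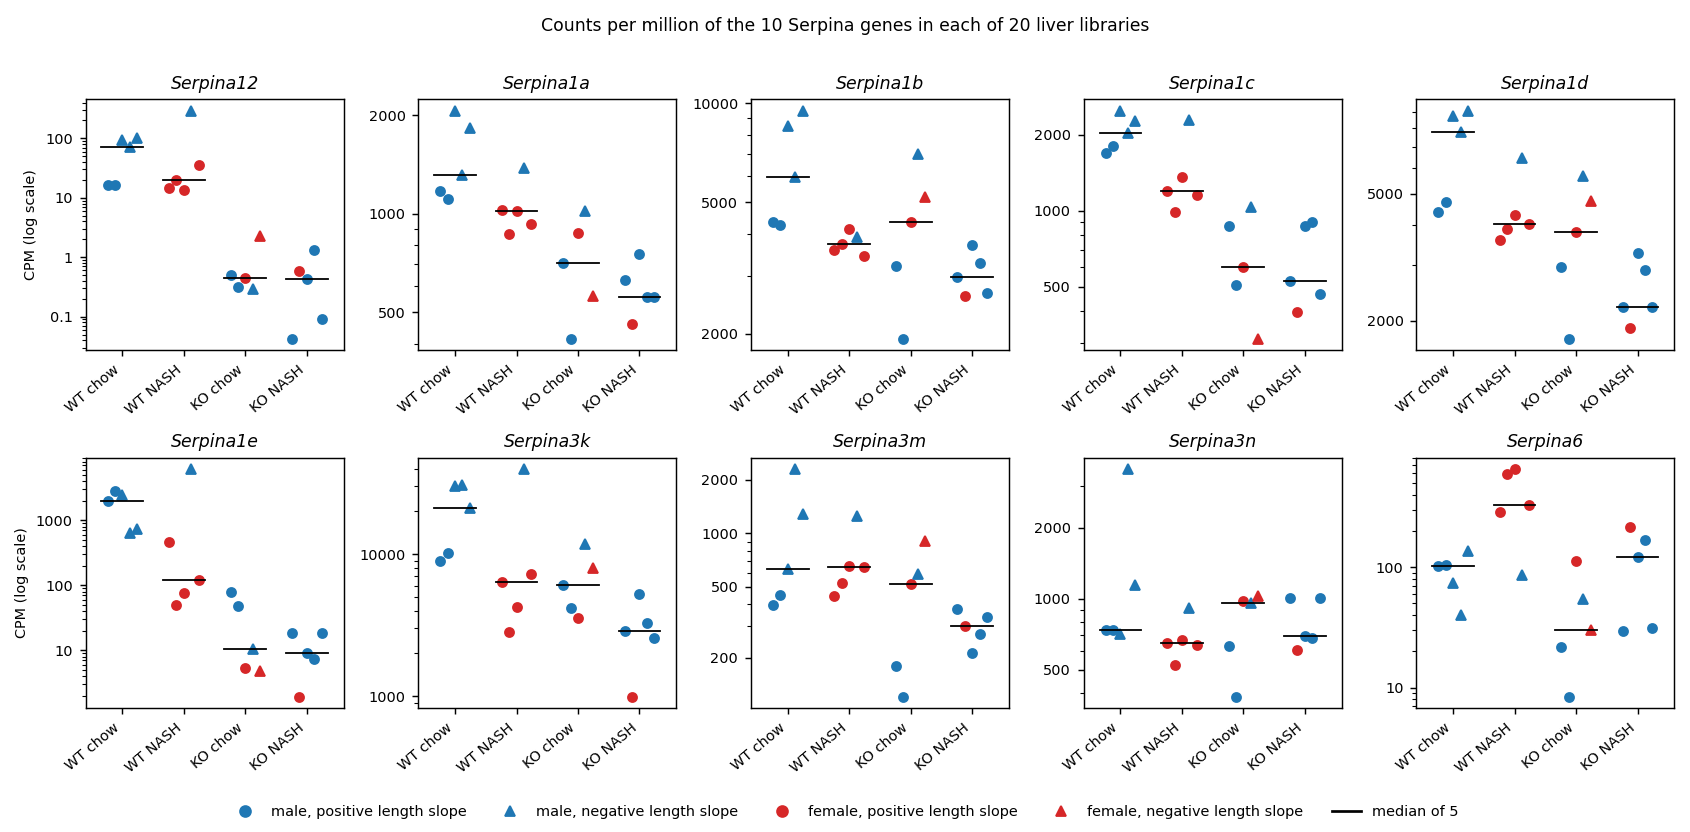
Each panel plots 1 gene's level in CPM (log scale) in the 20 liver libraries, by group, with the median of 5 as a line. Colour gives the sex read from Y-linked counts and shape the sign of the length slope. Serpina12 and Serpina1e lie lower in every KO library than in any WT library of the same diet, and WT NASH replicate 4 (the blue triangle of that group) lies far above its group for Serpina12, Serpina1e and Serpina3k.

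The other alpha-1 antitrypsin copies were lower in KO by smaller steps. Serpina1c stood at 1701, 1810.2, 2490.2, 2036 and 2276 CPM in WT chow and at 874, 509, 600.1, 1036 and 311 CPM in KO chow. Every KO chow library was below every WT chow library. Serpina1c fell in KO chow by 1.63 on the log2 scale (SE 0.32, adjusted p = 0.006, edgeR quasi-likelihood test with Benjamini-Hochberg adjustment over 14440 genes, which all adjusted p-values below share). It stayed called with any 1 library left out, with adjusted p from 0.00259 to 0.0227. On the NASH diet Serpina1c was at 1202, 993, 1356, 2290 and 1151 CPM in WT and 528, 397, 869, 907 and 470.4 CPM in KO, again without overlap, and fell by 1.14 on the log2 scale (SE 0.32, adjusted p = 0.0297). That call was lost in 4 of 20 fits with 1 library left out, those without WT NASH replicate 4 (adjusted p = 0.0886) or KO NASH replicate 1, 2 or 5 (adjusted p = 0.0823, 0.0721 and 0.0905).

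Serpina1a, the copy closest to Serpina1c, stood at 1171, 1107, 2059, 1315 and 1820.5 CPM in WT chow and 706, 415, 870, 1019 and 559.8 CPM in KO chow. The groups did not overlap, and Serpina1a fell by 1.07 on the log2 scale (SE 0.25, adjusted p = 0.0189). Without WT chow replicate 3 or KO chow replicate 2 it was no longer called (adjusted p = 0.063 and 0.0555). Serpina1a under the NASH diet was at 1026, 869.7, 1020.1, 1382 and 932 CPM in WT and 627, 460.4, 753, 557 and 558 CPM in KO. It fell by 0.82 on the log2 scale (SE 0.25, adjusted p = 0.0439), close to the threshold. It was called in 8 of 20 fits with 1 library left out (adjusted p from 0.0311 to 0.112, the latter without KO NASH replicate 5).

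Serpina1d and Serpina1b, the most abundant copies, did not pass the threshold in either genotype comparison. Serpina1d was at 6921 ± 2233 CPM (SD, n = 5) in WT chow and 3786 ± 1521 CPM in KO chow, with a log2 difference of -0.87 ± 0.30 (SE) and adjusted p = 0.103. Under the NASH diet its values were 3588, 3882, 4284, 6465 and 4029.5 CPM in WT and 2210.5, 1896, 3263, 2888 and 2217 CPM in KO, which do not overlap (-0.83, adjusted p = 0.0877). Serpina1b differed least among the 5, by -0.59 ± 0.30 (SE) on chow (adjusted p = 0.286) and -0.31 ± 0.30 (SE) on the NASH diet (adjusted p = 0.55), and its KO and WT libraries overlapped on both. The annotated model of Serpina1b spans Serpina1d on the same strand, so counting by strand would not separate the 2 genes. How reads in the shared span were counted is not given in the sources used here.

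Summed over Serpina1a to Serpina1e, the alpha-1 antitrypsin level was 18723 ± 4906 CPM (SD, n = 5) in WT and 9534 ± 3719 CPM in KO on chow, and 12040 ± 4623 CPM in WT and 6771 ± 1321 CPM in KO on the NASH diet. The sum does not depend on how reads were split among the copies, other than reads that were dropped. Serpina1e made up 3.14% to 19.0% of it in the WT chow libraries, and 0.045% to 1.01% in KO chow. In WT NASH it made up 0.515% to 4.70% in the 4 female libraries and 30.5% in male replicate 4, and in KO NASH 0.0359% to 0.311%. Serpina1b made up 34.1% ± 4.2 (SD, n = 5) in WT and 44.6% ± 3.3 in KO on chow, and 33.7% ± 8.1 in WT and 45.2% ± 2.4 in KO on the NASH diet. Serpina1d stayed between 31.9% and 44.0% in all 20 libraries. Without Serpina1e the sums were 17001 ± 5235, 9505 ± 3740, 10662 ± 1992 and 6760 ± 1322 CPM in the same order of groups. These sums and shares include Serpina1e, which chose the set, and are given without a test.

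**Figure D2:**
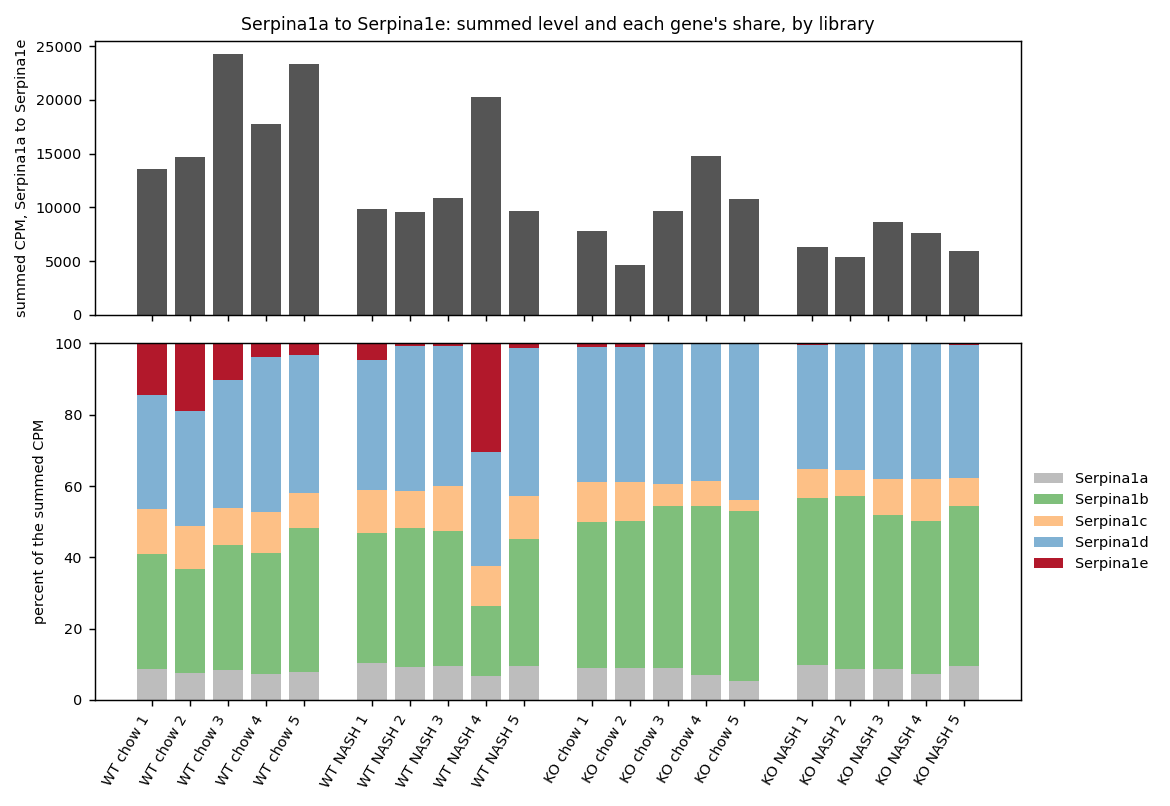
Bars give, for each of the 20 libraries, the summed CPM of Serpina1a to Serpina1e (top) and the percent of it that each copy held (bottom). The red band, Serpina1e, is 3.14% to 19.0% in WT chow, 30.5% in WT NASH replicate 4 and at most 1.01% in the KO libraries.

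Of the Serpina3 genes, Serpina3k had the highest mean level per length of all 10 genes in WT chow. In WT chow it stood at 8996, 10226, 30101, 30907 and 21081 CPM and in KO chow at 6082, 4206, 3545, 11851 and 7958 CPM. The ranges overlapped, and the log2 difference of -1.59 ± 0.63 (SE) did not pass the threshold (adjusted p = 0.153; 0.0385 without WT NASH replicate 4). Serpina3k under the NASH diet was at 6409, 2828, 4224, 39896 and 7306 CPM in WT and 2857, 992, 5206, 3257 and 2562 CPM in KO. It fell by 2.03 on the log2 scale (SE 0.63, adjusted p = 0.0477), although the ranges overlapped. That call rested on WT NASH replicate 4, at 39896 CPM: without it the difference was -0.81 ± 0.47 (adjusted p = 0.36), and of 20 fits with 1 library left out 7 kept the call.

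Serpina3m was at 444, 526, 659, 1249 and 649 CPM in WT NASH and 374, 299.6, 212, 272 and 339 CPM in KO NASH. Every KO library was below every WT library, while the fitted difference of -1.24 ± 0.51 (SE) did not pass the threshold (adjusted p = 0.129). On chow the libraries overlapped (-1.13 ± 0.51 (SE), adjusted p = 0.223). Serpina3n, the acute phase member and an inhibitor of granzyme B in mice, differed by -0.79 ± 0.40 (SE) on chow (adjusted p = 0.285) and by 0.24 ± 0.39 (SE) on the NASH diet (adjusted p = 0.752). Its 20 libraries lay between 385 and 1150 CPM except WT chow replicate 4, at 3544 CPM. Without that library the difference on chow was -0.06.

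Serpina6 stood at 102, 103, 74.4, 40.4 and 135 CPM in WT chow and 286, 595, 654, 85.3 and 327 CPM in WT NASH. KO chow libraries were at 21.5, 8.40, 112, 54.5 and 30.0 CPM and KO NASH libraries at 29.3, 215, 121, 169 and 31.2 CPM. In WT NASH the 4 female libraries were the highest of all 20, and male replicate 4 lay within the WT chow range. KO against WT gave a log2 difference of -1.01 ± 0.64 (SE) on chow (adjusted p = 0.415) and -1.78 ± 0.65 (SE) on the NASH diet (adjusted p = 0.0882), neither past the threshold. In males alone the NASH diet difference was 0.07.

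Over the genes that were tested for genotype, 2 of 8 were called in KO chow against WT chow, Serpina1a and Serpina1c, both lower, where 5.53% of all 14440 genes were called and 2.49% were called lower. In KO NASH against WT NASH 3 of 8 were called, Serpina1a, Serpina1c and Serpina3k, all lower, against 9.65% of all genes called and 4.74% called lower. All 3 calls on the NASH diet ended without WT NASH replicate 4, with no low-count filter (adjusted p = 0.108 for Serpina1a, 0.0555 for Serpina1c and 0.0574 for Serpina3k), and with KO NASH replicates 1 and 5 summed (0.0986, 0.0845 and 0.108). The fitted differences were negative for 8 of 8 genes on chow (median -1.04, all genes 0.00) and for 7 of 8 on the NASH diet (median -0.99, all genes 0.00). Of these 8 genes, Serpina1a and Serpina1c were lower in every KO chow library than in any WT chow library, which held for 2.65% of all genes. On the NASH diet the same held for Serpina1a, Serpina1c, Serpina1d and Serpina3m, against 6.44% of all genes. Serpina12 and Serpina1e were also lower in every KO library on both diets, but their values chose the set, so they are left out of this comparison. The genes share a locus, near-identical sequence and the same libraries, and are not independent of each other. DESeq2 called 3 of the 8 on chow (9.62% of all genes) and 5 on the NASH diet (15.2%), and limma-voom with quality weights 7 (40.4%) and 5 (23.8%). With 5 mice a group, the tests set differences against the spread between mice, which the main fit estimated over all 20 libraries. That spread also holds differences of sex and length slope, which were uneven over the groups.

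**Figure D3:**
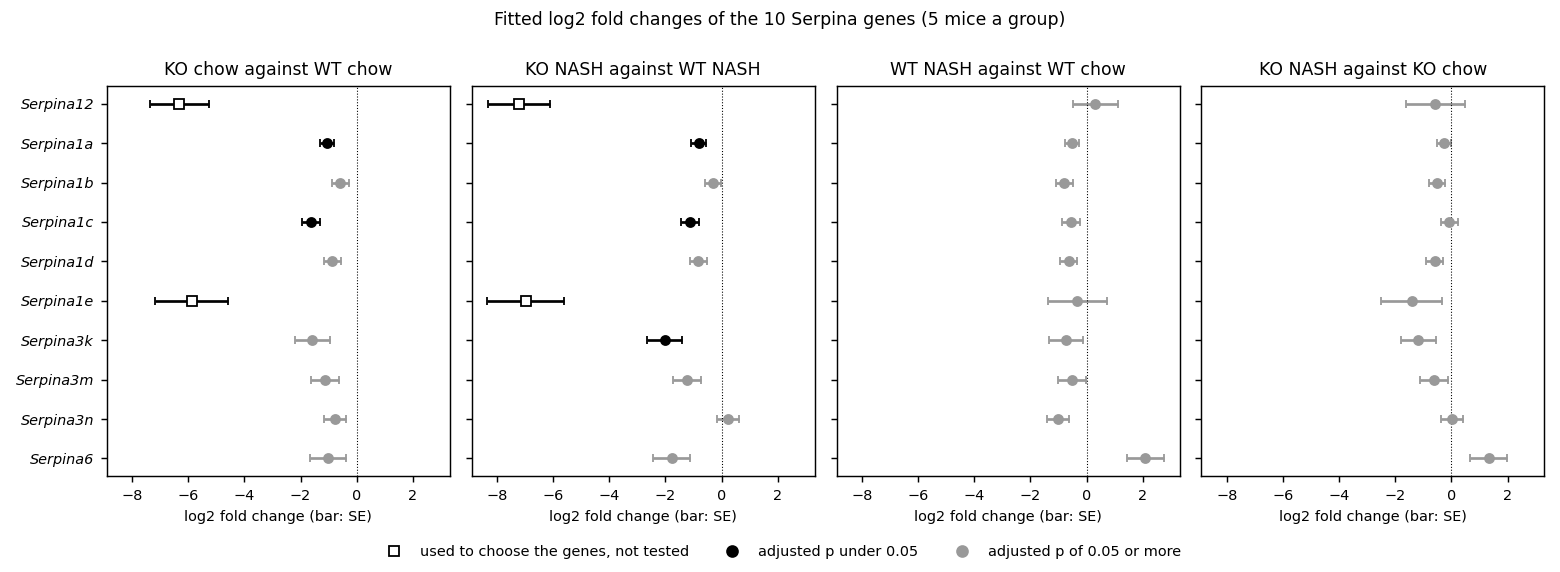
Points give the fitted log2 fold change of each of the 10 genes with its standard error, for 4 comparisons of 5 mice against 5. Open squares are the 2 genes whose values chose the set and which were not tested, black points have an adjusted p under 0.05, and grey points do not. In the 2 genotype comparisons the points lie left of 0 except Serpina3n on the NASH diet, at 0.24.

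Sex was unevenly spread over the groups, so the genotype comparisons were also fitted with sex as a term. On chow, where 2.73% of all genes were then called lower, Serpina1c and Serpina1a were called lower as before (-1.34, adjusted p = 0.00664, and -0.95, adjusted p = 0.0438). On the NASH diet, with 2.31% of genes called lower, Serpina1c (-1.63, adjusted p = 0.00291) and Serpina3k (-2.60, adjusted p = 0.00907) were called, and Serpina1a was not (-0.98, adjusted p = 0.0531). The only male of WT NASH is replicate 4, so these fits also draw on that library. Without it, in the fit with no sex term, Serpina1c was at -0.89 (adjusted p = 0.0886) and Serpina3k at -0.81 (adjusted p = 0.36), neither called. Serpina12 was at -5.61 and -7.29, and Serpina1e at -5.00 and -7.66. In males alone, where WT NASH is 1 library, Serpina1c was called on chow (-1.34, adjusted p = 0.0293) and, with the lone library assumed to vary like the other groups, on the NASH diet (-1.69, adjusted p = 0.0232). Serpina3k was the other call in males on the NASH diet (-3.49, adjusted p = 0.0059). Of all genes, 2.92% on chow and 9.69% on the NASH diet were called lower in males alone.

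The diet comparisons played no part in the choice of genes. In WT NASH against WT chow, edgeR called 0 of the 10 genes, against 5.93% of all genes, and 4 had an unadjusted p under 0.05 (Serpina1b, Serpina1d, Serpina3n and Serpina6), against 22.1% of all genes. DESeq2 called 1, Serpina6 (10.4% of all genes), and limma-voom with quality weights called 8 (40.6% of all genes). The largest difference was that of Serpina6, at 2.10 ± 0.66 (SE) (adjusted p = 0.0633). It was past the threshold without WT NASH replicate 4 (2.35 ± 0.64, adjusted p = 0.023) and without KO chow replicate 2 or 3 (adjusted p = 0.0465 and 0.0472), and over all alternatives its adjusted p ran from 0.00805 to 0.976. With sex as a term the difference was 0.61 (adjusted p = 0.744), and in males alone -0.12. Serpina1b was lower in every WT NASH library than in any WT chow library (-0.79 ± 0.30 (SE), adjusted p = 0.119), which held for 3.25% of genes. In WT chow it was at 4275 to 4373 CPM in the 2 libraries of positive slope and 5979 to 9471 CPM in the 3 of negative slope. The 4 female WT NASH libraries, of positive slope, were at 3451 to 4140 CPM. Over all alternatives the difference ran from -1.12 to -0.2.

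Serpina1e and Serpina12 showed how far 1 library reached. For Serpina1e the difference between WT NASH and WT chow was -0.32 ± 1.06 (SE) (adjusted p = 0.884) with all libraries and -3.28 ± 0.91 (adjusted p = 0.0265) without WT NASH replicate 4, which left 4 females against 5 males. With sex as a term it was 0.84, of the opposite sign. Serpina3k likewise went from -0.74 ± 0.61 (SE) (adjusted p = 0.495) to -1.98 ± 0.50 (adjusted p = 0.0167). For Serpina12 the difference was 0.31 ± 0.81 (SE) (adjusted p = 0.849) with all libraries and -1.53 ± 0.66 (adjusted p = 0.123) without that library, and limma-voom with quality weights gave -1.67 (adjusted p = 0.00618) with all. Without WT NASH replicate 4, 3 of the 10 genes were called, Serpina1e, Serpina3k and Serpina6, against 11.7% of all genes.

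Between KO NASH and KO chow 0 of the 10 genes were called by edgeR, against 3.29% of all genes, and 0 had an unadjusted p under 0.05, against 22.2%. DESeq2 called 0 (9.02% of all genes) and limma-voom 1, Serpina6 (12.7%). Its fitted difference was 1.32 ± 0.64 (SE) (adjusted p = 0.231). For Serpina12, at 0.763 ± 0.835 CPM (SD, n = 5) in KO chow and 0.502 ± 0.524 CPM in KO NASH, the difference was -0.58 ± 1.05 (SE), less than its error, at 1 to 37 counts a library. The interaction, how much the gap between KO and WT on the NASH diet exceeds the gap on chow, was called for 0 of 10 genes by edgeR (0.139% of all genes), DESeq2 (1.31%) and limma-voom (13.5%), and 0 had an unadjusted p under 0.05 (8.25% of all genes). The smallest adjusted p was that of Serpina3n (1.03 ± 0.56 (SE), adjusted p = 0.686). For Serpina12 the interaction was -0.89 ± 1.33 (SE) and for Serpina1e -1.10 ± 1.5 (SE), so differences of that size between the diets were within the error.

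Males and females were compared across groups after the pattern had been seen, in a fit with the 4 groups as terms. Serpina1e was higher in males by 3.72 ± 0.60 (SE) on the log2 scale (adjusted p = 0.00122, edgeR), and each male was above each female in the 3 groups that had both: 6182 CPM against 49.1 to 463 CPM in WT NASH, 10.5 to 78.4 CPM against 4.86 and 5.40 CPM in KO chow, and 7.28 to 18.4 CPM against 1.92 CPM in KO NASH. It was 1 of 10 genes called, against 1.02% of all genes. The call was lost without WT NASH replicate 4 (3.00 ± 0.77, adjusted p = 0.107), the library that is also apart in depth and slope. None of the other 9 was called in that fit. Serpina1c was at 0.86 ± 0.24 (adjusted p = 0.115) and Serpina3k at 1.60 ± 0.44 (adjusted p = 0.117), both higher in males. With the length slope as a further term, where 2.40% of genes were called, Serpina3k was called (1.38 ± 0.29, adjusted p = 0.0114), as it was without KO chow replicate 5 (1.97, adjusted p = 0.0192). Serpina6 was at -1.61 ± 0.53 (adjusted p = 0.267), higher in females. Serpina12 was at 1.18 ± 0.82 (adjusted p = 0.952) and at -1.22 ± 0.85 without WT NASH replicate 4.

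The levels of the genes relative to each other, per kilobase of exon, were ordered in WT chow as Serpina3k (9850.4 CPM per kb), Serpina1d (4965), Serpina1b (2701), Serpina1c (1516), Serpina1e (1065), Serpina1a (816), Serpina3n (667), Serpina3m (591), Serpina6 (51.7) and Serpina12 (16.2 CPM per kb). Serpina1d and Serpina1b, Serpina1b and Serpina1c, Serpina3m and Serpina6, and Serpina6 and Serpina12 differed by more than the larger of their SDs, for Serpina1d 1602 and for Serpina1b 985 CPM per kb. The other neighbours did not, Serpina3k with an SD of 5089.6 CPM per kb included. In KO NASH Serpina1e was at 6.78 CPM per kb and lay above Serpina12 alone, with Serpina12 at 0.136 CPM per kb.

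The rest of the family gives the setting. Of 16 other Serpina genes listed, 9 were tested, and 2 were called in each genotype comparison, both lower in KO, where 2.49% (chow) and 4.74% (NASH diet) of all genes were called lower. Serpina11, which lies between Serpina1e and Serpina12 and whose product is little studied, was at 90.2 ± 52.5 CPM (SD, n = 5) in WT chow and 27.3 ± 10.3 CPM in KO chow (-1.73 ± 0.40 (SE), adjusted p = 0.0158), and at 86.3 ± 38.8 CPM and 23.0 ± 8.59 CPM on the NASH diet (-1.90 ± 0.40 (SE), adjusted p = 0.00599). Its KO and WT libraries did not overlap on either diet. Serpina4-ps1, a pseudogene on the other side of Serpina12, was at 2.96 ± 2.39 CPM and 0.170 ± 0.155 CPM on chow (-4.03, adjusted p = 0.0456), and at 6.49 ± 9.91 CPM and 0.141 ± 0.176 CPM on the NASH diet (-5.53, adjusted p = 0.00819). Its WT NASH libraries ran from 0.182 CPM to 23.8 CPM, the latter in replicate 4, and overlapped with KO NASH, whose highest was 0.373 CPM. Without replicate 4 the WT NASH mean of Serpina4-ps1 was 2.15 CPM and the difference -3.99 ± 1.05 (SE) (adjusted p = 0.0277), and that of Serpina11 -1.61 ± 0.39 (SE) (adjusted p = 0.0167). In gene order, Serpina1e, Serpina12 and Serpina4-ps1 had the largest differences, and the Serpina1 copies before them had smaller ones. Serpina11 was nearer to Serpina1c (-1.63 on chow and -1.14 on the NASH diet) and Serpina3k than to Serpina1e and Serpina12. Serpina9, between Serpina11 and Serpina12, averaged at most 0.939 CPM in any group. Serpina1e and Serpina12 chose the set. Beyond Serpina4-ps1, Serpina3f, Serpina3g, Serpina3h and Serpina3i were at 0.83, 0.31, 0.64 and 1.15 on chow, and none was called. Under the NASH diet Serpina3f and Serpina3g averaged 4.91 and 13.4 CPM in KO and 7.20 and 21.8 CPM in WT. Serpina3h averaged 0.938 CPM in KO and 0.563 CPM in WT, and Serpina3i 0.509 and 0.530 CPM. Serpina3c, also beyond and not called, averaged 0.681 CPM in KO and 1.74 CPM in WT on chow. On the NASH diet it averaged 0.414 CPM in KO and 1.83 CPM in WT, whose highest library was at 6.33 CPM. The medians on that diet were 0.335 and 0.363 CPM. Serpina3k, Serpina3m and Serpina3n, further on, were at -1.59, -1.13 and -0.79 on chow and at -2.03, -1.24 and 0.24 on the NASH diet. Serpina10, before Serpina6, was not called (-1.40, adjusted p = 0.101, and -0.58, adjusted p = 0.48). Serpina7, on the X chromosome, was not called either but had higher means in KO. Its NASH diet means were 280.5 ± 94.6 CPM (SD, n = 5) in KO and 84.1 ± 60.7 CPM in WT. Those ranges overlapped, with the lowest KO library at 170 CPM and the highest WT library at 183 CPM. Its chow means were 95.2 CPM in KO and 72.6 CPM in WT, while the medians were 29.3 and 40.9 CPM.

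**Figure D4:**
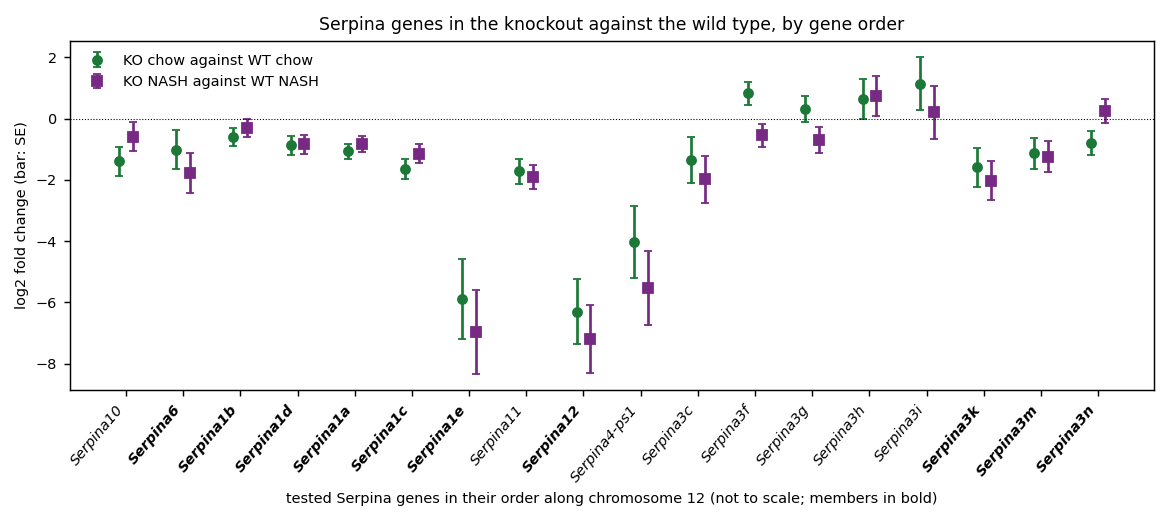
Points give the fitted log2 fold change (KO against WT, with its SE) of every tested Serpina gene of chromosome 12, in gene order and not to scale, on chow (circles) and on the NASH diet (squares). Serpina1e, Serpina12 and Serpina4-ps1 lie below -4 on both diets, with Serpina11 between the first pair at -1.73 and -1.90.

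Among 15 listed proteases and binding partners of these serpins, 11 were tested, of which 2 were lower in KO chow and 3 lower in KO NASH than in WT. The shares of all genes called lower, against which the counts of this and the next lists stand, were 2.49% and 4.74%. The largest called difference was that of F11, coagulation factor XI, at -1.17 on chow (adjusted p = 0.0317) and -1.81 on the NASH diet (adjusted p = 0.00142). In WT the NASH diet group had higher F11 than chow (1.11, adjusted p = 0.0386). Klkb1, plasma kallikrein, was the other call on chow (-1.14, adjusted p = 0.0443), and Klkb1 and Nr3c1, the receptor of the glucocorticoids that Serpina6 carries, were the others on the NASH diet (-1.04, adjusted p = 0.0482, and -0.64, adjusted p = 0.027). Klkb1 was not called on the NASH diet without WT NASH replicate 4 (adjusted p = 0.0887). Of 15 tested serpins of other clades, 1 was called lower in KO chow, Serpinf2, which encodes alpha-2 antiplasmin (-1.07, adjusted p = 0.0475), and 0 in KO NASH against WT NASH. Of 19 acute phase genes, 2 were lower in KO chow, with Saa4 the larger (-2.40, adjusted p = 0.019), and 0 in KO NASH against WT NASH. Of 12 liver transcription factors, 2 were lower in KO chow and 1 in KO NASH, led by Nr0b2, the orphan receptor SHP (-2.94, adjusted p = 0.0139, and -2.06, adjusted p = 0.0448). Without WT NASH replicate 4 Nr0b2 was not called on the NASH diet (-1.63, adjusted p = 0.133).

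Lists of genes with a known sex bias in liver were counted because sex was uneven. In WT NASH against WT chow, 12 of 16 tested female-biased genes were higher (2.69% of all genes), led by Sult2a1, a sulfotransferase (497 ± 639.9 CPM against 0.0317 ± 0.0457 CPM), and in KO chow against WT chow 10 of 16 were higher (3.03% of all genes), led by Cyp3a41a, a cytochrome P450 (250.1 ± 488 CPM against 0.0308 ± 0.0441 CPM). With sex as a term 0 and 2 of the 16 were called higher, against 0.457% and 3.12% of all genes. Between KO NASH and WT NASH 0 of 16 were higher and 1 lower, Cux2, a repressor found in female liver. Of 14 male-biased genes, 1 was lower in WT NASH than in WT chow, Cyp4a12b, a cytochrome P450 (-5.95, adjusted p = 0.046), 2 were lower in KO chow, led by Moxd1, a monooxygenase (-7.27, adjusted p = 0.0438), and 2 lower and 1 higher in KO NASH than in WT NASH. These counts turned on WT NASH replicate 4. Without that male library 13 of the 14 were lower in WT NASH than in WT chow (6.92% of all genes) and 6 lower in KO chow (3.52%). In KO NASH against WT NASH 9 were then higher (3.82% of all genes) and 0 lower (2.79%). Without that library the female-biased genes called were 12 higher in WT NASH (4.74% of all genes), 14 higher in KO chow (4.01%) and 3 lower in KO NASH (2.79%). Of 10 growth hormone signalling genes, 1 was lower in KO chow, Ghr, the receptor (-0.93, adjusted p = 0.0276), and 3 lower in KO NASH, with Cux2 the largest (-5.19, adjusted p = 0.00389). Without WT NASH replicate 4 these were 3 and 4, where 3.52% and 2.79% of all genes were called lower.

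Markers of other tissues were checked because vaspin is known from fat and skin. Hepatocyte markers summed to 48600 to 121000 CPM in the 20 libraries. Of 6 adipocyte markers, Lep was at 0 counts in all libraries and Adipoq at 0 to 0.545 CPM. Their sum was 0 to 1.32 CPM in WT chow, 0.517 to 0.969 CPM in WT NASH, 0.297 to 5.15 CPM in KO chow and 3.59 to 54.8 CPM in KO NASH, and Cfd reached 54.4 CPM. Of 4 keratinocyte markers, Krt5, Krt14 and Krt1 had at most 2 counts in any library and Krt10 had 5 to 37 (0.241 to 2.26 CPM). The sum of the 4 was 0.711 to 1.52 CPM in WT chow, 0.736 to 2.26 CPM in WT NASH, 0.281 to 0.729 CPM in KO chow and 1.06 to 1.58 CPM in KO NASH. The part of such cells in the level of Serpina12 was not tested.

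Over the 20 libraries the genes whose levels ranked most like Serpina12, among 9028 genes averaging 5 CPM or more, were Cyp2d40 (Spearman rho 0.95), Fam47e (0.94), LOC102632463 (0.93), AI463229 (0.93) and Mpnd (0.93). Cyp2d40, a cytochrome P450, averaged 38.5 CPM in WT and 12.9 CPM in KO on chow, and 44.1 and 11.4 CPM on the NASH diet. Within the 10 WT libraries its rho with Serpina12 was 0.76 and within the 10 KO libraries 0.83. The genes most like Serpina1e were Zbtb33 (0.90), Selenbp2 (0.87), C1ra (0.87), Mug1 (0.86) and Ugt2b1 (0.86). In the same order, their rho with Serpina1e was 0.75, 0.85, 0.84, 0.71 and 0.68 within the 10 WT libraries. Within the 10 KO libraries it was 0.70, 0.28, 0.31, 0.59 and 0.26. Selenbp2 is a male-biased liver gene, and the part of sex in its likeness to Serpina1e was not tested. Among the 10 genes, rho was highest for Serpina1a with Serpina1c (0.93) and Serpina1b with Serpina1d (0.93), and was 0.72 for Serpina12 with Serpina1e. Serpina3n had a rho of 0.06 with Serpina12, and Serpina6 had 0.39 with Serpina12 and 0.02 with Serpina1e. These values describe 20 libraries that share their groups, sexes and slopes, and carry no test.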

How the data were processed

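The authors deposited 1 table of read counts per gene symbol for 20 libraries of mouse liver RNA. Reads were aligned with HISAT2 2.0.4 and the build was GRCm38, per the submitters' processing notes. The counting program, its annotation and its strand setting: not given in the sources used here. Columns named for a high-fat diet were read as the NASH diet groups. Libraries held 9958935 to 20601955 counts, so precision is lowest for genes of few counts. The biological coefficient of variation in the fit was 39.0%.

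Genes were filtered with filterByExpr (minimum count 10), scaled by TMM and fitted with edgeR 4.0.16 (R 4.3.3) as 4 group coefficients over all 20 libraries. The quasi-likelihood F test was adjusted by Benjamini-Hochberg over 14440 genes, and an adjusted p under 0.05 was called. SE is the log2 fold change over the root of F. DESeq2 1.42.0 and limma 3.58.1 were alternatives, beside other scalings, filters, terms for sex and length slope, a replicate block and leaving out each library. The comparison of males with females, the fits on libraries of 1 slope sign and the list counts without WT NASH replicate 4 were added after the data had been seen. Scripts were tested on simulated data.

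The members and lists were chosen with earlier results of these data known. All 10 members are named. Of each other list the called gene with the largest change is named, with others where a result turns on them. The 5 genes ranked most like Serpina12 and Serpina1e exclude Gm-numbered, Rik and pseudogene symbols. Per-length levels use GENCODE M21 exonic lengths. Same-numbered mice of different groups are not paired by the labels, and 13 of 30 such pairs of libraries had deviations correlated over 0.1 (range -0.41 to 0.52), so no pairing was used. No 2 libraries of a group agreed within sampling noise (lowest chi-square per degree of freedom 7.81, KO NASH replicates 1 and 5). The next lowest of the 40 pairs was at 21.5, so these 2 were the most alike. A fit with them summed is given as an alternative, and whether they are independent mice was not tested.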

Additional observations from a re-analysis of the deposited data

Results flagged for a closer look

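In 8 of 40 gene and group combinations of 5 libraries, 1 library lay apart by more than the Dixon critical value of 0.71 (the gap to the nearest library over the range of the group). Chance gives about 1 in 20 groups, and genes of the same library are not independent. WT NASH replicate 4 accounted for 6 of the 8, always as the highest library. It held Serpina12 at 290 CPM (nearest 36.4), Serpina1c at 2290 CPM (nearest 1360), Serpina1d at 6470 CPM (nearest 4280), Serpina1e at 6180 CPM (nearest 463), Serpina3k at 39900 CPM (nearest 7310) and Serpina3m at 1250 CPM (nearest 659). This library is also male among 4 females, of negative length slope and the shallowest, and the parts of these were not tested. The others were Serpina12 in KO chow replicate 5 at 2.25 CPM (nearest 0.51) and Serpina3n in WT chow replicate 4 at 3540 CPM (nearest 1150).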

How the results depend on the processing

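Of the genotype calls, that of Serpina1c in KO chow was kept with each library left out, and the others were lost without some library. The interaction was called for 0 of 10 genes under each alternative. Genes called in WT NASH against WT chow numbered 0, but 1 by DESeq2, 8 by limma-voom, 1 when fitted on the groups compared only, 1 in libraries of positive slope, and 0 to 3 with a library left out (3 without WT NASH replicate 4). In KO NASH against KO chow limma-voom called 1. In KO chow against WT chow 2 were called, but 7 by limma-voom, 1 with only the groups compared, 1 in males, 1 in libraries of positive and 0 in those of negative slope, and 1 to 3 with a library left out. In KO NASH against WT NASH 3 were called, but 0 with no low-count filter, 5 by DESeq2 or limma-voom, 0 in females, 0 with KO NASH replicates 1 and 5 summed, and 0 to 3 with a library left out. Between males and females 1 was called, 2 with the slope as a term and 0 to 2 with a library left out. The terms for length slope were among the 15 alternatives to each genotype comparison beside leaving out a library. Of genes not called in the main fit, Serpina1d was called in 4 of the 15 on chow and Serpina6 in 2. Serpina1b, Serpina3k and Serpina3m were called in 1 each on chow. On the NASH diet Serpina1d was called in 5, Serpina6 in 3 and Serpina3m in 2. The cause of these changes was not tested.

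With the replicate number as a block, which the labels do not pair, 3 of 8 genes were called lower in KO chow against WT chow (2.95% of all genes, 2.49% without the block) and 4 of 8 in KO NASH against WT NASH (4.83%, 4.74% without), Serpina1d added in both (adjusted p = 0.0316 and 0.0338), and none in the diet comparisons. The block turned Serpina12 in WT NASH against WT chow to -0.34 and the interaction of Serpina1e to 1.09 and of Serpina3m to 0.05.

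The other differences that changed sign, by setting, were as follows. In WT NASH against WT chow, Serpina12 was -1.67 by limma-voom (adjusted p = 0.00618), and Serpina1c, Serpina1e and Serpina3k were 0.07, 0.84 and 0.02 with sex as a term, 0.12, 0.87 and 0.41 with sex and slope, and 0.13, 1.82 and 0.96 in males. Serpina3m was 0.14 with slope as a term, 0.28 in males and 0.43 in positive slope libraries, Serpina6 -0.12 in males, and in negative slope libraries Serpina1e, Serpina3k and Serpina6 were 2.16, 0.45 and -0.07. In KO NASH against KO chow, Serpina12 was 0.83 with slope, 0.52 with sex and slope, 0.3 in males and 0.23 in positive slope libraries. Serpina1c was 0.05 with slope. Serpina3m was 0.38 by limma-voom, 0.21 with slope, 0.43 with sex and slope, 0.01 in males and 0.13 in positive slope libraries. Serpina3n was -0.02 with RLE factors and by DESeq2, 0 without the 20 most abundant genes or without a filter, -0.01 with the groups compared only or with sex, -0.71 in females and -0.1 with the summed pair. In KO NASH against WT NASH, Serpina3n was -0.08 in males and -0.01 in females, and Serpina6 0.07 in males. For the interaction, limma-voom gave 1.14, 1.51, 1.19 and 0.92 for Serpina12, Serpina1e, Serpina3k and Serpina3m. With slope, Serpina12 was 0.11 and Serpina3m 0.07. With sex, Serpina1a, Serpina1c, Serpina1d, Serpina3m and Serpina6 were -0.03, -0.29, -0.19, 0.04 and 1.08. With both terms, Serpina1c, Serpina3m and Serpina6 were -0.26, 0.65 and 1.14. In males, Serpina1a, Serpina1c, Serpina1d and Serpina6 were -0.06, -0.35, -0.27 and 1.76. In positive slope libraries, Serpina1e was 1.72 and Serpina3k 0.24. Between males and females, Serpina3n was -0.09 with slope.

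With 1 library left out, values ranged across 0 for Serpina12 (-1.36 to 0.3 in KO diet groups, -1.53 to 0.58 in WT diet groups, -1.68 to 0.94 interaction, -1.22 to 2.1 between sexes), Serpina1b (-0.24 to 0.15 between sexes), Serpina1c (-0.28 to 0.14 in KO diet groups), Serpina1d (-0.15 to 0.23 interaction, 0 to 0.38 between sexes), Serpina1e (-1.41 to 1.86 interaction), Serpina3k (-0.74 to 0.79 interaction), Serpina3m (-0.85 to 0.02 in WT diet groups, -0.66 to 0.26 interaction, -0.81 to 0.14 between sexes) and Serpina3n (-0.17 to 0.09 in KO diet groups, -0.2 to 0.2 between sexes). The interaction could not be fitted with only the groups compared.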
